A study of Mus musculus with 8 samples.

Results

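Integrins are receptors of the cell surface in which an alpha and a beta subunit pair to bind the extracellular matrix or other cells. The genes described here are 10 integrin subunits (Itga1, Itga3, Itga4, Itga5, Itga6, Itga7, Itga11, Itgav, Itgb1 and Itgb5), taken as the rows of the expression table whose symbol is one of these names. Of the 10, 9 had a row among the 12589 rows of the table, and Itga4 had none. The alpha chain largely sets what an integrin binds. Beta 1 is the shared partner of the collagen-, laminin- and fibronectin-binding alpha chains, whereas beta 5 pairs with alpha v. In lymphoid stroma, integrins anchor fibroblastic cells to the fibres that they secrete, and they link this matrix to actin inside the cell.

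The RNA-seq was performed on mSSC-YFP, a mouse spleen stromal cell line that carries a yellow fluorescent protein. Cells received BMS493, an inhibitor of retinoic acid (RA) signaling, or its vehicle DMSO for 48 h, with 4 samples labelled for each treatment, and both groups grew in the same serum-containing medium. The study states that the line is immortalized, the labels do not say whether it is a single clone, and nothing in them says that the samples were separate cultures. The study asked which stromal genes respond when RA signaling is blocked.

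The value used for each gene is the authors' mean of its log2 normalized expression over all samples, in which both treatments are mixed. No value of a single sample or of a treatment group was analysed here, so the difference between BMS493 and DMSO is not given, and neither is an SD, a test or the depth of a library. All differences below are between genes within this one mean, and none of them could be set against a spread between replicates. Raised from the log2 scale, the values of all rows summed to 989369. In what follows, a level is 2 to the power of the mean log2 expression. A level per kilobase is that level divided by the length of the gene's longest annotated transcript, and single genes are compared on this scale unless another is named. Medians over gene lists and percentiles of all rows are on the log2 scale, which is not divided by length.

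The stromal label was set beside marker genes. Of 9 fibroblastic markers 8 had a row, from 5.24 for Pdgfra to 13.29 for Col1a1 on the log2 scale, and Lum had none. None of 5 B cell markers had a row. Among leukocyte markers 1 of 5 had one, as did 1 of 5 macrophage, 2 of 5 endothelial and 1 of 4 platelet markers, with mean log2 values of at most 3.01. The leukocyte and platelet markers with a row, Itgb2 and Itga2b, are integrin genes that are also described below. A marker without a row has no value here and cannot be read as unexpressed, so missing rows do not exclude other cells. Of 5 epithelial markers 3 had a row. Krt8 and Krt18 stood at 1.55 and 0.31, but Cdh1, which encodes E-cadherin, stood at 8.03, at percentile 95.1 of all rows.

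The order of the subunits per kilobase was led by the beta chain that most of them share. Itgb1 lies on chromosome 8 from 128685654 to 128733200 (GRCm38, plus strand) and its longest transcript has 16 exons and 3815 bases. Its mean log2 expression was 10.41, at percentile 99.6 of all rows, and its level per kilobase was 357. Itgb5, the vitronectin-binding partner of alpha v, spans chromosome 16 from 33829665 to 33949338 on the plus strand. It had a mean log2 expression of 7.47 and a level per kilobase of 54.0, so that Itgb1 stood 6.62 times higher, or 2.68 times with the median transcript length. All other chosen subunits lay below both on this scale.

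**Figure D1:**
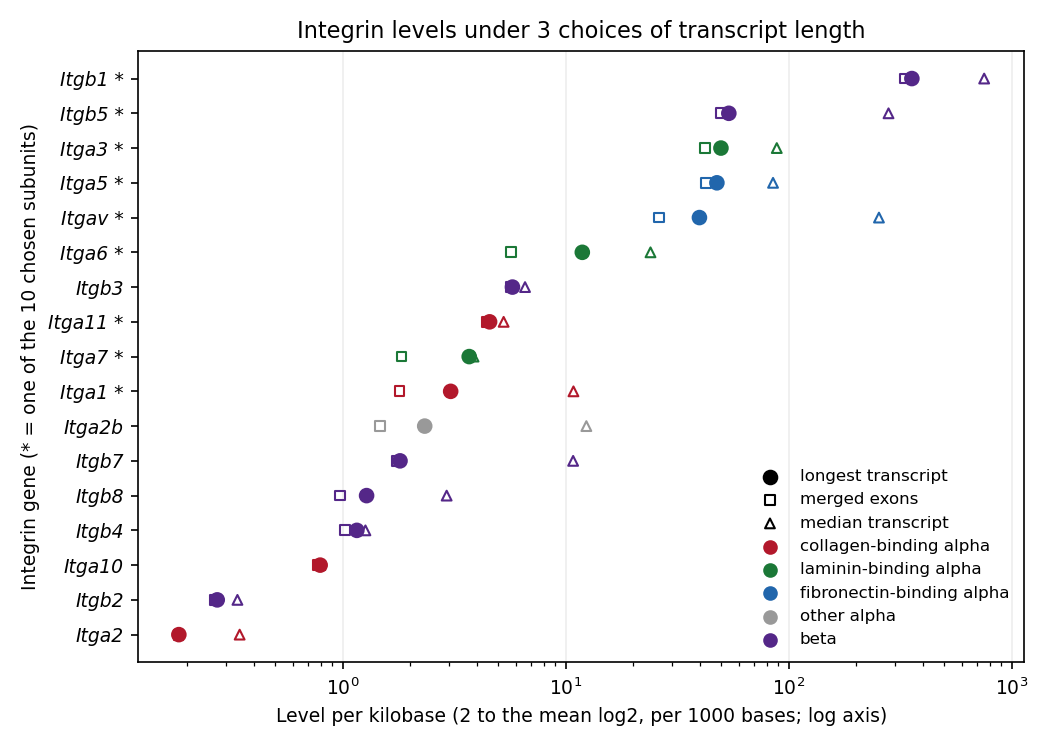
Level per kilobase (x axis, log scale) of the 17 integrin genes with a row, ordered by the value from the longest transcript (filled circles); open squares divide by merged exon length and triangles by median transcript length. Each point is 1 authors' mean over all samples, without error bars. Itgb1 is first under each length, and the collagen-binding chains, in red, lie between 0.184 and 4.57 with the longest transcript.

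Promoter sequences were read for the subunits, and a chosen few are printed. The choice did not follow the order of levels, since Itgb5 and Itga5 are not among them. RefSeq promoters on GRCm38.p6 were matched for 8 of the 10 subunits, Itga6 and Itga7 being the others. Shown are 150 bases upstream of the annotated gene, 5′ to 3′ on the strand of the gene, with each CpG dinucleotide in capitals, for the highest beta chain, Itga3, Itgav and both collagen-binding members. They lie at chr8:128685504-128685653 (Itgb1, plus strand), chr11:95076802-95076951 (Itga3, minus strand), chr2:83724247-83724396 (Itgav, plus strand), chr9:62677676-62677825 (Itga11, plus strand) and chr13:115101965-115102114 (Itga1, minus strand).
Itgb1: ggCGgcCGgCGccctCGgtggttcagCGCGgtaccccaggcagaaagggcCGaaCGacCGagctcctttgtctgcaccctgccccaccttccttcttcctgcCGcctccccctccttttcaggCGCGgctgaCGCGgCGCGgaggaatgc
Itga3: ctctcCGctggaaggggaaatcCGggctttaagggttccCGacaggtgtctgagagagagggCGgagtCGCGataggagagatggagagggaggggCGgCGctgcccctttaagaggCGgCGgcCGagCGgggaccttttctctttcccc
Itgav: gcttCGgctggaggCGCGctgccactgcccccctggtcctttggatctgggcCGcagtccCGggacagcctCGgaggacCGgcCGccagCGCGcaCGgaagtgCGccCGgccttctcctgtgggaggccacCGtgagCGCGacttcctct
Itga11: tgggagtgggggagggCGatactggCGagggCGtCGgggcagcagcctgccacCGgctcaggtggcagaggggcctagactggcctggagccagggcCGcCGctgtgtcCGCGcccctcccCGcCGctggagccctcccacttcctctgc
Itga1: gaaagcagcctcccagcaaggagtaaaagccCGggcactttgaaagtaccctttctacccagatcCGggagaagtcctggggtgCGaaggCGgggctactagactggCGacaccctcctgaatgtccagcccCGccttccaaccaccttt

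Of the laminin-binding alpha chains, Itga3 was by far the most abundant. It lies on chromosome 11 from 95044474 to 95076801 (minus strand, 26 exons in the longest transcript) and encodes the receptor for the laminins of basement membranes that carry the alpha 3 or alpha 5 chain. Its mean log2 expression was 7.92 (percentile 94.4) and its level per kilobase 49.8. Itga6, a broader laminin receptor on chromosome 2 from 71745616 to 71858416 (plus strand), had a mean log2 expression of 5.68 and a level per kilobase of 11.9. Itga3 stood 4.19 times above it, or 7.46 times with merged exons. Itga7, best known from the attachment of skeletal muscle fibres to laminin, lies on chromosome 10 from 128933818 to 128958282 (plus strand). It was the lowest of the 9 subunits before division by length, with a mean log2 expression of 3.89 (percentile 31.9), and had a level per kilobase of 3.70. Itga3 alone supplied 76.1% of the summed level per kilobase of this group, which was 65.4.

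Both fibronectin-binding alpha chains with a row were near the level of Itga3. Itga5 encodes the classical fibronectin receptor and lies on chromosome 15 from 103344286 to 103366763 (minus strand, 31 exons). Its mean log2 expression was 7.72 (percentile 93.1) and its level per kilobase 47.7. Itgav, which binds fibronectin, vitronectin and other ligands through their RGD motif, lies on chromosome 2 from 83724397 to 83806916 (plus strand, 30 exons). With 8.14 it had the highest mean log2 expression of the alpha chains, at percentile 95.6. Per kilobase it had 39.9, below Itga5 and Itga3, because its longest transcript, at 7054 bases, is longer than theirs (4415 and 4861 bases). The order of these 3 genes therefore depended on the length used: Itgav led them without division by length and with the median transcript length, Itga3 with the longest transcript, and Itga5 with merged exons. The summed level per kilobase of this group was 87.6. Itga4, which binds fibronectin and VCAM-1, and Itga8 had no row and add nothing to it.

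The collagen-binding alpha chains formed the lowest group. Itga1, the receptor that favours the collagen of basement membranes, lies on chromosome 13 from 114953096 to 115101964 (minus strand, 29 exons). It had a mean log2 expression of 5.07, in the middle of the table at percentile 51.5. Its longest transcript has 10967 bases, the longest of the 9 subunits, and its level per kilobase was 3.05, the lowest of the 9 and at percentile 22.1 of the rows with a length. With the median transcript length Itga1 ranked 7 of the 9. Itga11, a receptor for fibrillar collagen in fibroblasts, lies on chromosome 9 from 62677826 to 62783982 (plus strand, 30 exons). It had a lower mean log2 expression than Itga1, 4.50, but a level per kilobase of 4.57, which was 1.49 times that of Itga1. With the median transcript length the ratio fell to 0.486, so that the order of these neighbours turned with the length used. The other collagen-binding chains were lower still. Itga10 had a mean log2 expression of 2.00 and a level per kilobase of 0.794, with 33.5% of its exon bases in exons of Gm42957, and Itga2, whose gene ends 20995 bases before that of Itga1 starts, had 0.39 and 0.184.

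Summed over each group, the collagen-binding chains reached 8.60 per kilobase, against 65.4 for the laminin-binding and 87.6 for the fibronectin-binding chains. The laminin-binding sum was 7.60 times and the fibronectin-binding sum 10.2 times the collagen-binding one. The collagen-binding group was the lowest under each length that was tried. The fibronectin-binding sum exceeded the laminin-binding one by 1.34 times, and with Itga5 taken alone it was the lower of both, at 0.730 times. Of the summed level per kilobase of all alpha chains with a row, the 3 groups made up 5.25%, 39.9% and 53.4%, with the laminin-binding share at 24.0% under the median transcript length, and Itga3, Itga5 and Itgav together 83.8%.

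**Figure D2:**
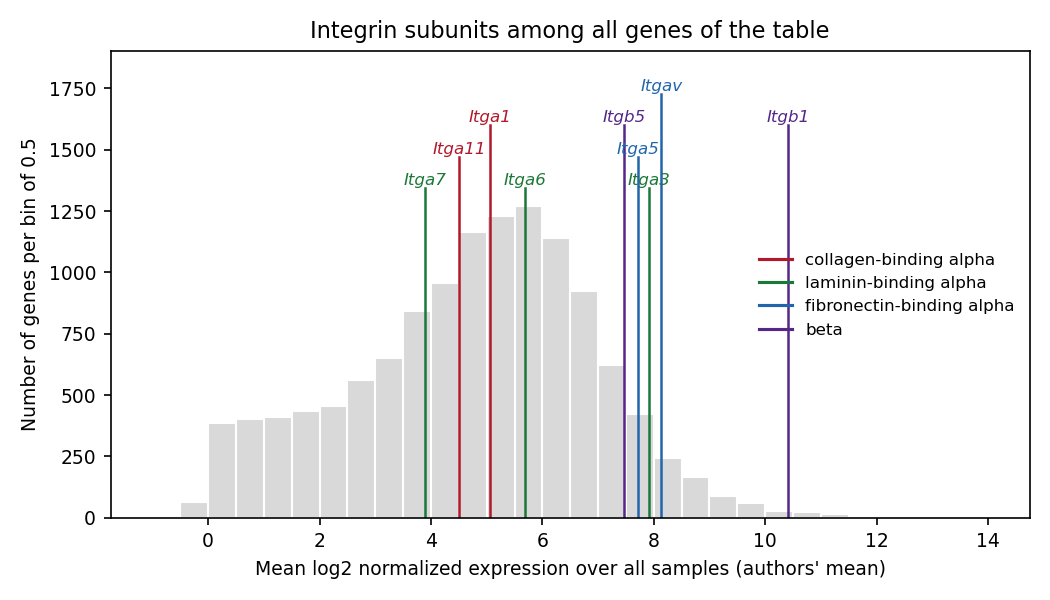
Number of genes (y axis) by mean log2 normalized expression over all samples (x axis, bins of 0.5) for all rows of the table, with a line at the value of each of the 9 subunits, coloured by group. Itgb1, Itgav, Itga3, Itga5 and Itgb5 lie above percentile 90 of all rows, and Itga7, at 3.89, is the farthest to the left.

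Within the whole table, 5 of the 9 subunits lay above percentile 90, and the median of the 9 was 7.47 against 4.99 over all rows, both on the log2 scale. The subunits were chosen with earlier results of these data known. Their standing above all rows or above other integrin genes may therefore follow from that choice. Of the other 16 integrin genes 8 had a row, with a lower median of 2.56 on the log2 scale, and none lay above percentile 90. Their ranges overlapped, since the highest of the 8, Itgb3 with 5.06, was above Itga11 and Itga7. Those without a row were Itga8, Itga9, Itgad, Itgae, Itgal, Itgam, Itgax and Itgb6. A gene without a row has no value here and cannot be read as unexpressed. For Itgam, 68.7% of the exon bases lie in exons of another gene, on either strand, in the annotation used here. Of the others without a row, Itgad had 19.7% and Itga8 5.05%, and Itga9, Itgae, Itgal, Itgax and Itgb6 had 0. Itga10, which has a row, had 33.5%. Whether such overlap bears on a missing row was not tested.

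Set against its partners, Itgb1 had 2.21 times the summed level per kilobase of the alpha chains that can pair with beta 1 and have a row. Itgav is counted in full among these chains. With the median transcript length this ratio was 1.59. Itgb1 made up 84.8% of the sum of all beta chains, and Itgb5 12.8%. With the median transcript length these shares were 71.4% and 26.6%. Further partners of alpha v differ in their ligands and were at lower levels or without a row. Itgb3, the vitronectin receptor chain also known from platelets, had a mean log2 expression of 5.06 and 5.78 per kilobase, so that Itgb5 stood 9.34 times above it, or 42.7 times with the median transcript length. Itgb8, a chain through which alpha v acts on latent TGF-beta, had 3.43 and 1.28. Itgb6 had no row. Together, the levels per kilobase of Itgb3, Itgb5 and Itgb8 came to 61.0, and Itgav alone had 39.9. Without division by length this order turned, with a summed level of 221 for these beta chains and 281 for Itgav.

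For the remaining subunits, partners were at unlike levels or had no row. Of these partners, Itga6 can also pair with beta 1 and Itgb3 with alpha v. Itgb4 pairs with alpha 6 in the hemidesmosomes of epithelia, and its mean log2 expression of 2.85 and level per kilobase of 1.16 were low. Itga6 stood 10.3 times above it, with 5.54 times under merged exons and 19.0 times under the median transcript length. Itga2b, the alpha chain of the platelet fibrinogen receptor, had a mean log2 expression of 3.01 and a level per kilobase of 2.34. Its partner Itgb3 stood 2.47 times above it, but at 0.531 times its level with the median transcript length, so that their order turned with the length used. Itgb7 pairs with alpha 4 and alpha E in lymphocytes. It had a mean log2 expression of 2.28, whereas neither Itga4 nor Itgae had a row. Itgb2, the common beta chain of leukocyte integrins, was almost at the bottom of the table, with a mean log2 expression of -0.30 at percentile 0.0874, and none of its alpha partners Itgal, Itgam, Itgax and Itgad had a row.

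The matrix genes that these receptors bind were then set beside them. All 10 collagen chains of the list had a row, from 25.6 per kilobase for Col6a3 to 1064 for Col1a2 and 1684 for Col1a1, which encode the chains of type I collagen. The lowest of them was above the highest collagen-binding alpha chain, Itga11 with 4.57. The list holds only chains of collagens I, III, IV, V and VI, and other collagen genes were not read. The laminin list runs through Lama1 to Lama5, Lamb1 to Lamb3 and Lamc1 to Lamc3. Of 11 laminin chains 9 had a row. They ran from 0.0994 per kilobase for Lama1 to 66.6 for Lamb1 and 106 for Lamc1, a range that overlaps that of the laminin-binding chains, from 3.70 to 49.8. Fn1, the fibronectin gene, had a mean log2 expression of 13.08 and 1038 per kilobase, 11.9 times the summed Itga5 and Itgav. The sum of the listed collagen chains was 532 times that of the collagen-binding alpha chains, and the sum of the laminin chains 4.14 times that of the laminin-binding chains. With the median transcript length these ratios were 2002 and 19.5. That length is 428 bases for Col1a1, whose longest transcript has 5930, so the rise follows largely from the divisor. The collagen and laminin ratios rest on lists of unlike breadth. Among the other ligands, Tnc, which encodes tenascin C, had 168 per kilobase and Spp1, which encodes osteopontin, 53.9. Vcam1, whose product binds integrin alpha 4 on leukocytes, had a mean log2 expression of 8.03 and 64.0 per kilobase. Its longest transcript is annotated with 1 exon, and with merged exons it had 29.5 per kilobase, below Itgb5, Itga5 and Itga3, which it exceeded with the longest transcript. Vtn, the vitronectin gene, had no row.

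**Figure D3:**
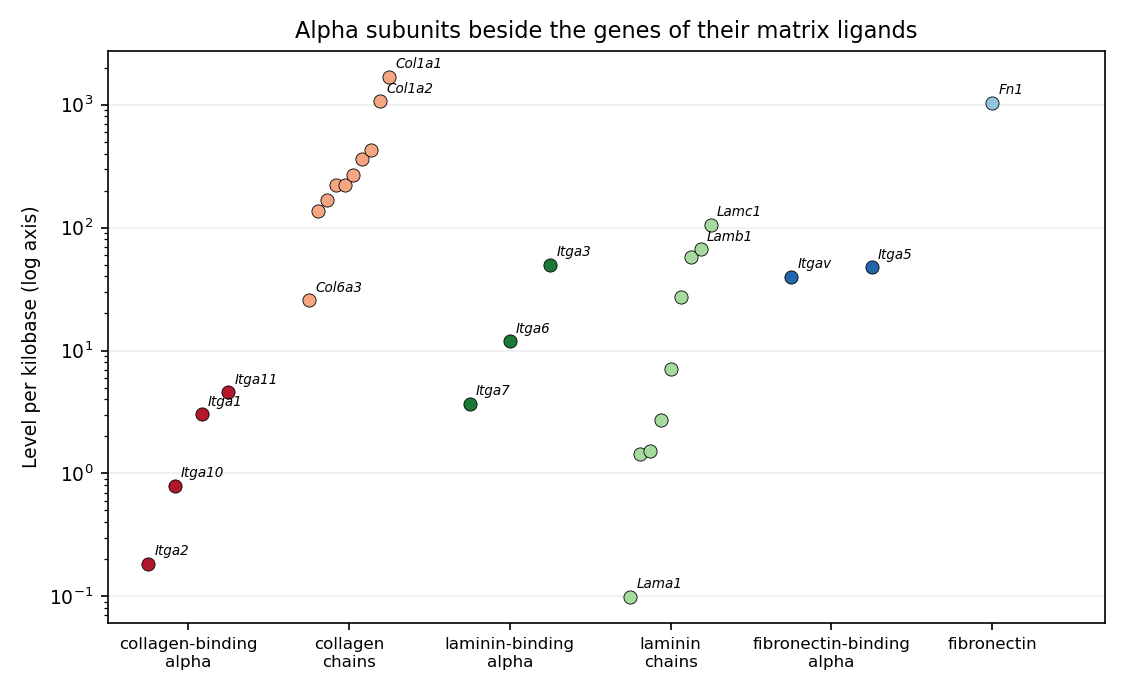
Level per kilobase (y axis, log scale) of the alpha chains with a row, by ligand group, beside the genes of their ligands; each point is 1 gene's authors' mean over all samples, and only the outermost ligands are named. The collagen-binding chains, up to 4.57, and the 10 listed collagen chains, from 25.6, do not overlap, whereas laminin-binding and laminin chains do. Other collagen genes were not read.

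Inside the cell, beta tails are bound by talins and kindlins, and further adaptors link them to actin. Of 25 adaptor genes 21 had a row, with a median of 7.42 on the log2 scale, close to that of the 9 subunits, and 12 of them lay above percentile 90. In families with several members, 1 paralog usually led. Tln1, the broadly expressed talin, had 94.8 per kilobase and Tln2 9.07. Fermt2, the kindlin of mesenchymal cells, had 71.2, whereas Fermt1 and Fermt3, known from epithelia and blood cells, had no row. Lims1 and Lims2, which encode the PINCH adaptors, had 47.2 and 2.19, and Parva and Parvb, which encode parvins, 69.9 and 4.32. Tns3 and Tns1, which encode tensins, had 48.4 and 15.8, but 167 and 230 with the median transcript length, which turned their order. The alpha-actinins Actn1 and Actn4 were at like levels, 281 and 226.

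Reads that fall in exons of more than 1 gene can be lost or misplaced in gene counts. The study prepared stranded libraries and counted with an Ensembl annotation, whereas the overlaps given here come from GENCODE M21 on either strand. Whether these overlaps affected the counts was not tested. Of the 9 subunits, 6 share no exon base with another gene on either strand in the annotation used here, and the largest share was 5.90%, for Itgav with Gm13684. For Itga1 it was 3.68%, with Gm49395, and for Itga7 it was 0.111%, with Mettl7b. Itga4, the subunit without a row, had a larger share, 8.04%, with Cerkl. The levels of the subunits also stand for the whole gene: Itga6 has 8 and Itga7 has 5 annotated transcripts, and splice forms of the alpha chains were not separated.

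The printed promoter stretches held 16 CpG dinucleotides for Itgb1, 12 for Itga3, 16 for Itgav, 11 for Itga11 and 6 for Itga1. No relation of these counts to the levels was tested. Over the 250 bases before each RefSeq start, the start of Itga3 farthest upstream had 22 CpG and its other start had 5. Itgb1 had 21, Itgav and Itgb5 had 18 each, Itga11 had 12, Itga5 had 11 and Itga1 had 10. The median was 16 over 11414 promoters of genes with a row and 6 over all 32851 promoters. The GC box GGGCGG, searched on both strands, occurred in 5 of 8 promoters of subunits with a row (Itga3 has 2 promoters), against 58.6% of the promoters of all genes with a row. It was present before Itga3, Itga5, Itgb1 and Itgb5, and these letters were not in the windows of Itga1, Itga11 and Itgav. The TATA box letters TATAAA and the half-site AGGTCA, which RA receptors bind in pairs, were in 0 of the 8, against 6.21% and 10.4% of the promoters of genes with a row. RA receptors also bind other variants of this half-site and far from start sites, which were not searched.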

How the data were processed

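RNA-seq of mSSC-YFP cells treated with BMS493 or DMSO was analysed from 1 table. According to the study's methods and the submitters' processing notes, the authors checked reads with FastQC, aligned them to mm10 with STAR 2.3.0e, took gene counts with Rsubread from reads with a single alignment (Ensembl annotation), and normalized the counts by a trimmed mean of M-values with weights. The deposited values used here are the authors' means of log2 normalized expression over all samples. Whether a count was added before logs is not given in the sources used here, and the depth per library is unknown. The 4 other value columns hold the authors' own comparison (log2 fold change, t, p-value and adjusted p-value) and were not used. The planned test of BMS493 against DMSO needs values of single samples and was not run.

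Decimal commas were converted. Positions and lengths came from GENCODE M21 on GRCm38 (mm10), in which the symbols of 11789 rows, 93.6%, were found. Each level, 2 to the mean log2, was divided by the longest transcript. Merged exons, the median transcript, no division and Itga5 alone were the alternatives. Promoters came from RefSeq on GRCm38.p6. Windows of 7 of 8 subunits matched a GENCODE transcript on their own strand and 0 on the other. Python 3.11.15, numpy 2.4.6, pandas 2.3.3 and matplotlib 3.10.9 were used, and the helper functions were tested on made-up data. The subunits, gene lists, ligand groups and settings were chosen with earlier results of these data known. Named are all subunits, all other integrin genes, the 2 highest and the lowest of each ligand list with Fn1 and Vcam1, and the outer paralogs of each adaptor family. Marker lists cover fibroblastic stroma, B cells, leukocytes, macrophages, endothelium, epithelium and platelets.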

Additional observations from a re-analysis of the deposited data

How the results depend on the processing

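No paired analysis was possible because only a mean over all samples was used, and for the same reason leaving out replicates, other scalings and filters on counts were not run. A value was taken to have moved where it changed by more than 1.5 times. With merged exon length, 0 of the 6 group sums and ratios moved, but 4 of the 9 subunits did (Itga1 to 1.80, Itga6 to 5.68, Itga7 to 1.84 and Itgav to 26.2 per kilobase), and with the median transcript length 7 of the 9 moved. With the median transcript length the group sums per kilobase moved to 17.3 (collagen-binding), 116 (laminin-binding) and 340 (fibronectin-binding), the fibronectin-binding over collagen-binding ratio to 19.7 and the fibronectin-binding over laminin-binding ratio to 2.92. That setting divides by shorter transcripts, and by unlike degrees: 1105 against 7054 bases for Itgav but 4298.5 against 4969 for Itga11. Without division by length the sums, then levels, were 61.5, 308 and 492 in the same order, and the laminin-binding over collagen-binding ratio moved to 5.01. With Itga5 as the only fibronectin-binding chain the sum was 47.7, and its ratios were 5.55 over the collagen-binding and 0.730 over the laminin-binding chains. Of the 17 integrin genes with a row, 15 reached a mean of 1 on the log2 scale.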

Other observations

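Among the integrin adaptors, Ilk, which encodes integrin-linked kinase, stood apart, and it was singled out after its values were seen. Its mean log2 expression was 0.42, at percentile 3.07 of all rows, whereas its binding partners Lims1 and Parva stood at 7.67 and 8.68 on this scale. Divided by the longest transcript, the levels were 0.587, 47.2 and 69.9 per kilobase. In the annotation used here, 89.7% of the exon bases of Ilk lie in exons of Rrp8 or Taf10 on either strand. The median over the 21 adaptors with a row was 0. The part of this overlap in the low value was not tested.

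In 19 rows the gene symbol has been turned into a date, and 1 of these dates stands in 2 rows. No integrin, ligand or adaptor symbol is of this form.

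Cdh1 was the only one of the 5 epithelial markers with a high value, 8.03 on the log2 scale, beside 10.41 for Itgb1. Epcam and Cldn4 had no row.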
